A study of Oryza sativa with 35 samples.

Results

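This account concerns 117 rice loci, out of 57778 in the deposited tables, whose transcript level was higher than before treatment at every sampled time of a chilling treatment in both of 2 related rice lines. For each locus and time t, R(t) is log2((FPKM at t + 1)/(FPKM at 0 h + 1)), taken from the mean FPKM of the libraries of a line, and a locus was a member if R was at least 2 at 12, 24 and 72 h of chilling in DC90 and in 9311. FPKM is the number of fragments scaled by transcript length and by library size, so levels of different genes are per unit length. The members were chosen by their measured R at 12, 24 and 72 h, and these values are for that reason given as a description without a test. Adding 1 to each level makes R smaller than the true change for genes of low level.

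Whole plants of age 30 days were sampled as RNA-Seq libraries at 0 h, after 12, 24 and 72 h of chilling at a day/night temperature of 10/8 °C, and at 84 and 96 h, which are 12 and 24 h of recovery under normal growth conditions. DC90, whose libraries carry the title W9 and the genotype label of chilling tolerance, is a chromosome segment substitution line that carries the CTS-12 locus of the wild rice Oryza rufipogon in the background of 9311, an indica variety that is chilling sensitive and served as its recurrent parent. The 12 groups hold 3 libraries each, apart from 9311 at 84 h with 2, so that 35 libraries were used. The study's methods call them biological replicates, while the labels do not say how the plants were grown apart or how many a library holds, so p-values measure only the spread between these libraries. Each genotype is 1 line, so a difference between DC90 and 9311 is one between these lines. Samples at 12 and 84 h were taken 12 h of the day away from 0 h, and time of day cannot be told apart from the treatment at these times.

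Chilling slows enzyme reactions, stiffens membranes and disturbs photosynthesis in rice, a plant of warm climates, and the cold changes the transcript levels of many regulators and protective proteins. Among the genes known for this in plants are those of the circadian clock, a loop of transcription factors that normally peak at set times of day and whose cycling is damped in the cold, heat stress factors and their chaperone targets, and late embryogenesis abundant (LEA) proteins and dehydrins, hydrophilic proteins that accumulate in drying seeds and under water shortage.

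In the 117 members, the level at 0 h, as the mean of the group means of both lines, ran from 0.00178 to 277 FPKM with a median of 1.93 FPKM. The highest group mean of a member in chilling ran from 8.32 to 3694 FPKM with a median of 85.9 FPKM. The median R of the members was 3.18, 4.08 and 3.38 in DC90 and 2.93, 3.83 and 3.74 in 9311 at 12, 24 and 72 h. R of at least 2 was reached by 0.765%, 1.4% and 1.32% of all 57778 loci in DC90 and by 0.575%, 1.19% and 1.55% in 9311 at the same times. The highest mean of chilling fell at 12, 24 and 72 h for 8, 88 and 21 members in DC90 and for 9, 59 and 49 members in 9311. The time of the highest mean was the same in both lines for 70 members, of which 51 peaked at 24 h. In 112 of 117 members every chilled library of a line lay above every 0 h library of that line, in both lines, against 6.25% of the loci tested. One of the 112, LOC_Os09g30340, met this by its listed FPKM alone, since 3 of its chilled libraries in DC90 had 1 count, as had every 0 h library. The exceptions were LOC_Os03g58790, LOC_Os07g48040, LOC_Os04g50860, LOC_Os10g34930 and LOC_Os01g58130. The members nearest to the limit were LOC_Os10g31850, LOC_Os03g13310 and LOC_Os01g18090, with a smallest R of 2.0005, 2.0038 and 2.01. The nearest loci outside were LOC_Os01g42860, LOC_Os02g33420 and LOC_Os02g03040, with 1.9832, 1.9789 and 1.9753.

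**Figure D1:**
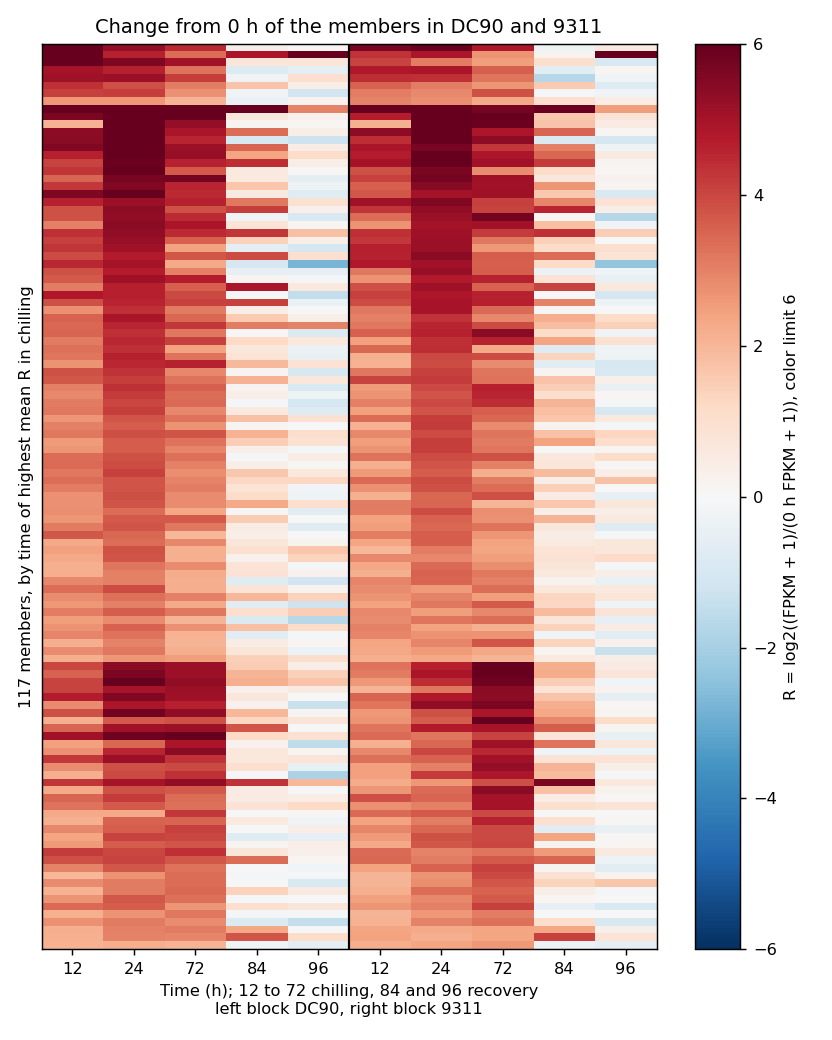
Heat map of R, the log2 ratio of mean FPKM + 1 at each time to that at 0 h, for the 117 members (rows, ordered by the time at which the mean R of both lines was highest in chilling) in DC90 (left block) and 9311 (right block) at 12, 24 and 72 h of chilling and 84 and 96 h (recovery). Colors are capped at 6; red covers the chilled columns by the choice of the members, and most rows are pale at 96 h, where the median R was 0.12 in both lines.

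Total counts per library ran from 28004101 to 68927044. The loci tested were the 22961 with a mean FPKM of at least 0.5 over the 35 libraries. All 117 members passed this filter, and 104 of them would also pass it on the 17 libraries at 0, 84 and 96 h alone. One chilled library stood apart, since replicate 2 of 9311 at 12 h had the lowest median of log2(FPKM + 1) over the members in chilling, 4.01 against 5.03 and 5.13 in the other libraries of its group. Without it 129 loci met the rule, and without replicate 3 of DC90 at 0 h, whose summed level of 6 root marker genes was 471 FPKM against 39.0 and 37.2 FPKM in its group, 118 loci did. The summed level of 5 leaf marker genes (Rubisco small subunits and Lhcb1) ran from 401 to 2712 FPKM at 72 h, from 488 to 3260 FPKM at 84 h and from 8002 to 17450 FPKM at 0 h over both lines. The part of this shift in the members' values was not tested, and in whole plants fewer cells of a type cannot be told apart from less RNA per cell.

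**Figure D2:**
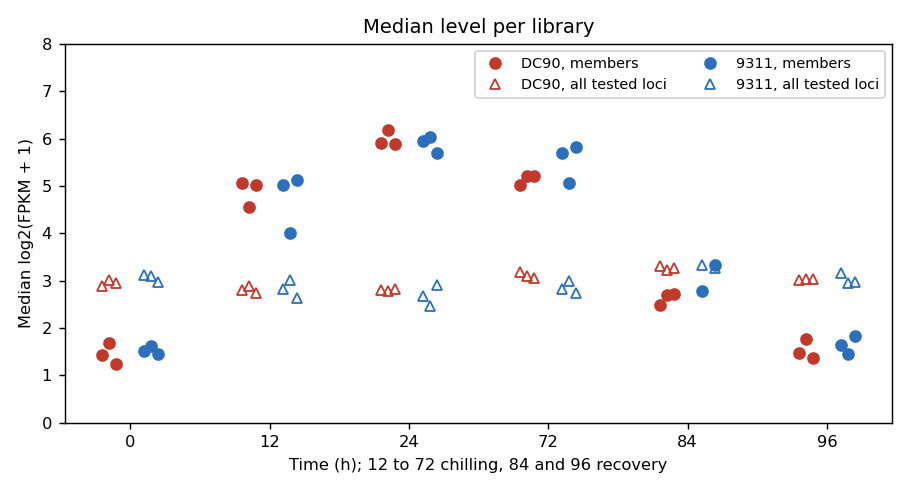
Median log2(FPKM + 1) of the 117 members (filled circles) and of the 22961 tested loci (open triangles) in each library, by time, with DC90 left of 9311. The members' median in the chilled libraries of 9311 at 12 h was 5.03, 4.01 and 5.13, and the chilled libraries of both lines lie above all others.

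By their deposited descriptions, 86 of the 117 members were named after a Swiss-Prot protein, 25 of them a rice protein, and 24 had no known function. That last share, 20.5%, stood beside 20.9% of all loci tested. LEA proteins, dehydrins and abscisic stress-ripening proteins made up 5 members, which is 4.27% of the members and 0.327% of the loci tested. Chaperones, all of the DnaJ type, made up 4 members (3.42% and 0.989%), response regulators and CCT-domain proteins 4 members (3.42% and 0.296%), and heat stress factors 2 members (1.71% and 0.109%). No member was described as a protein kinase, a class that held 4.09% of the loci tested, or as a bZIP factor, with 0.34%. Of the 18 members with a KEGG pathway, 5 were in the plant circadian rhythm pathway, which held 24 of the 3762 tested loci with a pathway, and 2 in thiamine metabolism, which held 11. Chromosome 1 held 28 members, or 23.9%, against 13.9% of the loci tested, and chromosome 12 held 3 members, or 2.56%, against 5.33%. The class of response regulators was added after the members had been seen, and no share was tested.

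Of the gene lists used to look for known clock and cold genes, the clock list gave the most members, 5 of 10. The dehydrin and LEA list gave 2 of 10, and the list of galactinol synthases and trehalose-phosphate phosphatases 1 of 4. None of 10 DREB1 genes (AP2/ERF factors that turn on cold-responsive genes), of which 6 passed the filter on levels, none of 8 clade A protein phosphatases 2C and none of 4 stress-related NAC genes were members.

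The clock members were high throughout chilling in both lines and parted in recovery, where the 84 h mean was below that at 0 h for PRR95 and above that at 72 h for PCL1. They were PCL1 (LOC_Os01g74020, the rice counterpart of Arabidopsis LUX ARRHYTHMO of the evening complex), PRR1 (LOC_Os02g40510, the TOC1 type of pseudo-response regulator), PRR95 (LOC_Os09g36220) and an APRR5-like locus (LOC_Os11g05930), which are pseudo-response regulators, and GIGANTEA (LOC_Os01g08700). Adagio-like protein 3 (LOC_Os11g34460), an F-box protein of a family of blue light receptors that bind GIGANTEA in Arabidopsis, was a member outside the list. CCA1 (LOC_Os08g06110), in the list but not a member, was below 0 h throughout chilling. Its R was −1.165, −2.366 and −2.94 in DC90 and −1.473, −2.691 and −3.371 in 9311 at 12, 24 and 72 h. PRR37, PRR73, HEADING DATE 3B and ELF3-like protein 2, also outside the members, had R from −0.427 to 1.186 at these times in both lines. PRR95 averaged 10.0 ± 2.22, 368 ± 64.9, 380.5 ± 40.2, 191 ± 6.27, 8.56 ± 3.35 and 21.4 ± 2.47 FPKM in DC90 at 0, 12, 24, 72, 84 and 96 h (SD, n = 3). In 9311 it averaged 21.9 ± 1.75, 499 ± 232, 482 ± 115, 209 ± 33.6, 6.06 ± 0.257 and 18.9 ± 1.07 FPKM (n = 3, and 2 at 84 h). Its 72 h means were lower than those at 12 and 24 h in both lines, and its mean at 84 h was the lowest of all times.

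The evening genes PCL1 and PRR1 were above 0 h in each line at 84 h. PCL1 averaged 0.483 ± 0.593, 19.8 ± 4.62, 60.0 ± 21.0, 20.2 ± 5.77, 24.9 ± 7.59 and 0.836 ± 0.136 FPKM at 0, 12, 24, 72, 84 and 96 h in DC90. PRR1 averaged 3.69 ± 1.29, 61.5 ± 8.35, 81.2 ± 5.28, 43.8 ± 1.45, 18.6 ± 2.31 and 6.55 ± 1.21 FPKM in DC90 at these times. The 84 h libraries of PCL1 in DC90 thus overlapped those at 72 h, while PRR1 was lower at 84 h in each library of DC90 than in any library at 72 h. The APRR5-like locus averaged 11.0, 86.3, 147, 205, 11.1 and 14.6 FPKM in DC90, and 15.8, 127, 185, 265, 9.53 and 11.5 FPKM in 9311. It had its highest mean at 72 h in both lines. At 84 h its DC90 libraries lay within the range at 0 h and its 9311 libraries below it. GIGANTEA averaged 17.7, 133, 183, 152, 74.4 and 47.5 FPKM in DC90 and 27.9, 185, 227, 164, 70.2 and 47.6 FPKM in 9311.

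**Figure D3:**
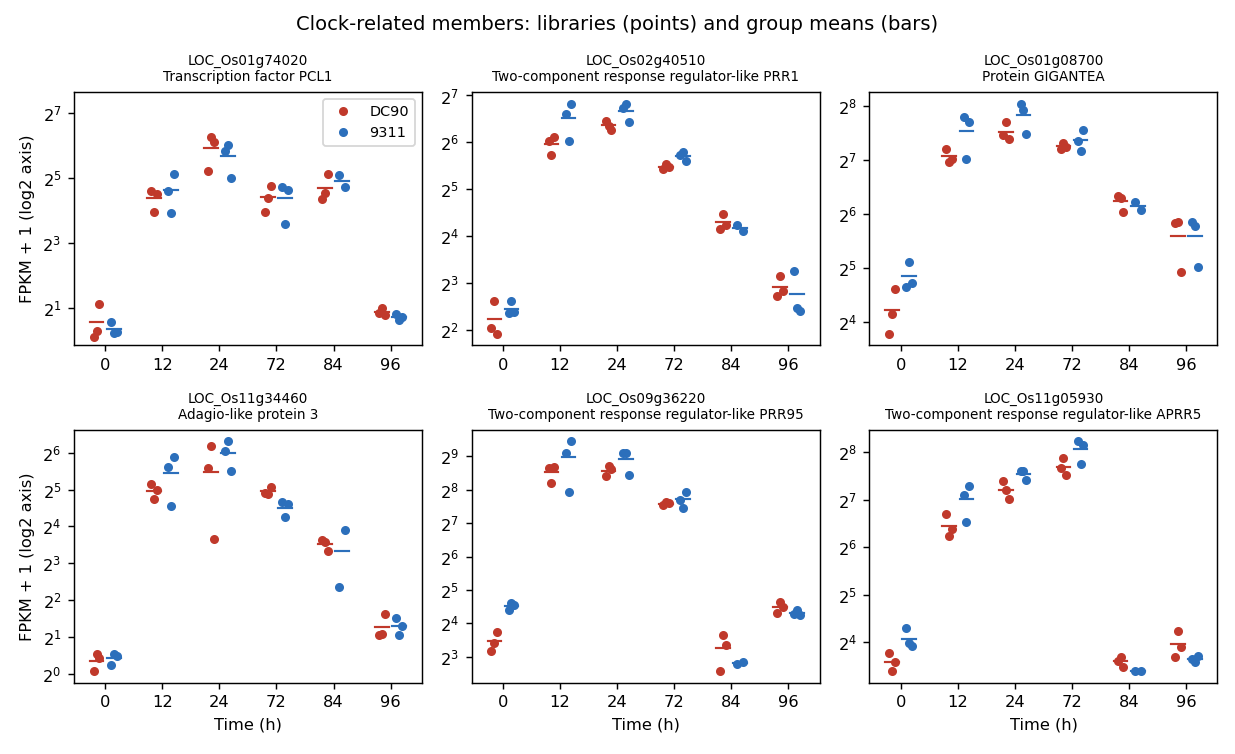
FPKM + 1 on a log2 axis of 6 clock-related members at 0, 12, 24 and 72 h of chilling and 84 and 96 h, with DC90 (red) left of 9311 (blue); points are libraries and bars are group means. PRR95 is at 8.56 FPKM in DC90 and 6.06 FPKM in 9311 at 84 h, while PCL1 is still at 24.9 and 29.2 FPKM at that time.

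The comparison of 96 h with 84 h used libraries that did not enter the rule. These times lie 12 h of the day apart, so time of day cannot be told apart from the length of recovery. They share the time of day of 0 and 12 h, and the rule asked for a rise from 0 to 12 h. That choice can favour loci that differ between these times of day. Over the whole clock list, 4 of 10 genes rose and 2 fell between 84 and 96 h in each line in edgeR's quasi-likelihood fit, where a call is a log2 change of 1 or more in size whose p, adjusted after Benjamini and Hochberg, is no higher than 0.05. Of all loci tested, 1.9% rose in DC90 and 1.92% in 9311, and 0.849% and 1.01% fell. Those that rose were PRR95 and 3 genes outside the members, CCA1 (LOC_Os08g06110, the morning MYB factor of the clock, log2 fold change 5.58 in DC90 and 6.79 in 9311), PRR37 (LOC_Os07g49460, 2.73 and 3.26) and PRR73 (LOC_Os03g17570, 1.99 and 2.35). PRR95 had 18.8, 23.7 and 21.5 FPKM in DC90 at 96 h, against 4.93, 11.5 and 9.22 FPKM at 84 h, with a log2 fold change of 1.63 ± 0.35 (SE; adjusted p = 0.00799 by edgeR). In 9311 it had 18.3, 20.1 and 18.2 FPKM at 96 h against 5.88 and 6.24 FPKM at 84 h, with a log2 fold change of 2.04 ± 0.42 (adjusted p = 0.00464 by edgeR). The libraries of the 2 times do not overlap in either line. PCL1 had 0.801, 0.986 and 0.721 FPKM in DC90 at 96 h against 19.3, 22.0 and 33.6 FPKM at 84 h, and 0.758, 0.529 and 0.64 FPKM against 33.1 and 25.4 FPKM in 9311. It fell with a log2 fold change of −4.61 ± 0.66 in DC90 (adjusted p = 6.57e-05) and −5.20 ± 0.70 in 9311 (adjusted p = 3.22e-05, both by edgeR). PRR1 fell with a log2 fold change of −1.23 ± 0.26 in DC90 (adjusted p = 0.00675) and −1.29 ± 0.29 in 9311 (adjusted p = 0.00917, both by edgeR). GIGANTEA and the APRR5-like locus did not pass the test in either line, with log2 fold changes of −0.28 and 0.72 in DC90 and of −0.25 and 0.56 in 9311. Adagio-like protein 3 fell in both lines, with −2.22 ± 0.55 in DC90 (adjusted p = 0.02) and −2.18 ± 0.58 in 9311 (adjusted p = 0.0377, both by edgeR).

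Both genes of the members in thiamine metabolism kept a high level into recovery. LOC_Os07g34570 is described as thiamine thiazole synthase 2, from sorghum, the enzyme that makes the thiazole part of vitamin B1, and LOC_Os03g47610 as phosphomethylpyrimidine synthase, from Arabidopsis, which makes the pyrimidine part. LOC_Os07g34570 had the largest smallest R of all members. In DC90 it had 1.99, 3.40 and 2.36 FPKM at 0 h, 990.3, 924.9 and 741 FPKM at 12 h, 1272, 1708 and 1743 FPKM at 24 h, 686, 536 and 656 FPKM at 72 h, 380, 305 and 379 FPKM at 84 h and 23.8, 32.4 and 25.6 FPKM at 96 h. In 9311 it had 4.17, 4.89 and 2.80 FPKM at 0 h, 776, 894 and 1203 FPKM at 12 h, 1708, 1489 and 999.5 FPKM at 24 h, 203, 384 and 197 FPKM at 72 h, 269 and 324 FPKM at 84 h and 37.9, 21.8 and 22.6 FPKM at 96 h. At 96 h every library was thus still above every 0 h library. Between 84 and 96 h it fell with a log2 fold change of −3.42 ± 0.31 in DC90 (adjusted p = 5.54e-08) and −3.16 ± 0.32 in 9311 (adjusted p = 6.58e-07, both by edgeR). LOC_Os03g47610 had 5.90, 2.87 and 6.37 FPKM in DC90 at 96 h against 50.7, 28.0 and 51.1 FPKM at 84 h, and 8.00, 3.58 and 3.42 FPKM against 44.1 and 23.4 FPKM in 9311. It fell in both lines, with log2 fold changes of −2.78 ± 0.53 in DC90 (adjusted p = 0.00207) and −2.55 ± 0.55 in 9311 (adjusted p = 0.00734, both by edgeR).

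By the deposited descriptions, 15 members were transcription factors. Heat stress transcription factor C-1b (LOC_Os01g53220, a class C heat stress factor of rice) had the highest smallest R among them. It had 0.449, 0.573 and 0.659 FPKM at 0 h, 129, 162 and 161 FPKM at 24 h, 15.3, 12.9 and 21.1 FPKM at 84 h and 0.804, 1.21 and 1.38 FPKM at 96 h in DC90. In 9311 it had 0.602, 1.58 and 0.489 FPKM at 0 h, 98.5, 116 and 74.5 FPKM at 24 h, 11.4 and 17.5 FPKM at 84 h and 0.706, 0.43 and 0.656 FPKM at 96 h. The 84 h libraries lay between those of chilling and those at 0 h in both lines, with no overlap. Between 84 and 96 h the gene fell with a log2 fold change of −3.56 ± 0.36 in DC90 (adjusted p = 2.57e-07) and −4.30 ± 0.39 in 9311 (adjusted p = 5.16e-08, both by edgeR). The second heat stress factor, A-3 (LOC_Os02g32590), was at 114 ± 19.6 FPKM in DC90 and 115 ± 19.5 FPKM in 9311 at 24 h. At 84 h it was at 7.20 ± 2.79 FPKM in DC90 and 8.00 ± 1.61 FPKM in 9311, and it passed the test between 84 and 96 h in neither line.

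Of the ethylene-responsive (AP2/ERF) factors, the locus described as Arabidopsis ERF110 (LOC_Os11g06770) fell between 84 and 96 h in both lines, to 0.271, 0.187 and 0.142 FPKM in DC90, against 0.829, 5.11 and 3.82 FPKM at 84 h, and to 0.214, 0.427 and 0.546 FPKM in 9311, against 2.25 and 8.24 FPKM. Its log2 fold changes were −3.43 ± 0.73 in DC90 (adjusted p = 0.00619) and −3.38 ± 0.73 in 9311 (adjusted p = 0.00768, both by edgeR). The zinc finger protein described as Arabidopsis ZAT7 (LOC_Os03g60560, a C2H2 type transcriptional repressor) fell in 9311 with a log2 fold change of −2.70 ± 0.59 (adjusted p = 0.00812 by edgeR), to 3.23, 3.47 and 5.98 FPKM at 96 h against 16.0 and 51.3 FPKM at 84 h. Its 2 libraries at 84 h differ widely. The NAC factor LOC_Os10g42130, the MYB factors LOC_Os01g09280 (described as MYBS3) and LOC_Os03g13310 (MYB1), the WRKY factor LOC_Os01g40260, the AT-hook protein LOC_Os06g22030 and the CONSTANS-like locus LOC_Os09g33550 had a highest chilled mean of 12.8 to 112 FPKM in a line, and none passed the test between 84 and 96 h.

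Of the 5 members described as LEA, dehydrin or abscisic stress-ripening proteins, RAB21, LEA14 and LEA19 had higher means in DC90 than in 9311 at 12, 24 and 72 h, and none of the 3 was called between the lines at any time. Both abscisic stress-ripening members had higher means in DC90 at 12 and 24 h and lower means in DC90 at 72 h. RAB21 (LOC_Os11g26790, a dehydrin of rice induced by water stress) had 65.9, 42.6 and 24.3 FPKM at 12 h, 45.6, 86.8 and 97.0 FPKM at 24 h and 153, 26.7 and 75.9 FPKM at 72 h in DC90. In 9311 it had 19.2, 19.8 and 12.6 FPKM, 21.0, 9.03 and 16.1 FPKM, and 3.76, 74.5 and 6.76 FPKM at these times. The lines do not overlap at 12 and 24 h and overlap at 72 h. LEA14 (LOC_Os01g50910) averaged 260.3 ± 167, 190.2 ± 133 and 131 ± 68.6 FPKM in DC90 and 104 ± 46.4, 51.9 ± 15.3 and 34.2 ± 14.5 FPKM in 9311 at 12, 24 and 72 h.

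LEA19 (LOC_Os05g46480, a group 3 LEA protein) averaged 22.2, 37.3 and 46.4 FPKM in DC90 and 5.93, 8.03 and 20.6 FPKM in 9311 at 12, 24 and 72 h. It had the highest R of these 5 members at 84 h, 4.33 in DC90 and 5.66 in 9311. It had 5.23, 38.7 and 25.7 FPKM in DC90 and 16.6 and 133 FPKM in 9311 at 84 h, against 0.105, 0.117 and 0.394 FPKM in DC90 and 0.334, 0.755 and 0.412 FPKM in 9311 at 0 h. At 96 h it had 2.11, 8.96 and 0.51 FPKM in DC90 and 2.63, 1.11 and 0.331 FPKM in 9311. It fell between 84 and 96 h in 9311 with a log2 fold change of −5.51 ± 0.93 (adjusted p = 0.000589 by edgeR). The 2 libraries of 9311 at 84 h behind this fall differ widely, at 16.6 and 133 FPKM. In DC90 libraries at 96 and 84 h overlapped. Of the dehydrin and LEA list, 9 genes passed the filter, and 3 of them fell and none rose between 84 and 96 h in 9311, while none passed the test in DC90. Of the DREB1 list, LOC_Os09g35010, LOC_Os04g48350 and LOC_Os09g35020 fell in 9311, with log2 fold changes of −4.46, −5.69 and −5.38. The 2 libraries of 9311 at 84 h differ widely in these genes, with means of 23.0 ± 24.0, 10.8 ± 13.4 and 4.88 ± 5.68 FPKM (SD). None of the DREB1 list passed the test in DC90. No gene of the phosphatase, NAC or galactinol and trehalose lists passed it in either line.

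The chaperone members are 4 DnaJ proteins, co-chaperones that stimulate Hsp70. DnaJ protein P58IPK homolog B (LOC_Os03g18870) had 56.1, 61.9 and 57.3 FPKM in DC90 and 66.0 and 70.2 FPKM in 9311 at 84 h, close to 57.1, 65.6 and 76.6 FPKM and 68.0, 58.5 and 55.3 FPKM at 72 h. At 96 h it averaged 9.25 ± 3.39 FPKM in DC90 and had 9.77, 6.60 and 8.69 FPKM in 9311, above the 1.83, 2.26 and 1.96 FPKM and the 2.28, 2.08 and 2.64 FPKM at 0 h. It fell between 84 and 96 h with a log2 fold change of −2.36 ± 0.27 in DC90 (adjusted p = 2.34e-06) and −2.72 ± 0.29 in 9311 (adjusted p = 9.59e-07, both by edgeR). LOC_Os04g57880 and LOC_Os06g28050 are both described as chloroplast DnaJ C76 of Arabidopsis. How reads shared between similar loci were counted is not given in the sources used here, so the levels of such pairs are uncertain. LOC_Os04g57880 fell to 0.0651, 0.106 and 0.0893 FPKM in DC90 at 96 h, against 11.1, 8.85 and 21.4 FPKM at 84 h, and to 0.28, 0.363 and 0.34 FPKM in 9311, against 15.7 and 11.1 FPKM (adjusted p = 5.91e-06 and 0.000207 by edgeR). LOC_Os06g28050 was listed at 0, 0.0796 and 0 FPKM in DC90 at 96 h, on 0, 4 and 0 counts, against 17.3, 13.4 and 36.5 FPKM at 84 h. LOC_Os01g42190 (DnaJ 6) fell in 9311, with a log2 fold change of −3.94 ± 0.72 (adjusted p = 0.00142 by edgeR), to 1.05, 0.362 and 0.354 FPKM against 3.30 and 18.1 FPKM. These 2 libraries at 84 h differ widely. No DnaJ member was called between the lines at any time.

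The most abundant member in chilling was LOC_Os01g19740, described as CP12-1 of Arabidopsis, a chloroplast protein that binds and silences Calvin cycle enzymes in the dark. It averaged 311 ± 96.9, 2134 ± 298, 3200 ± 1096, 1566 ± 910, 324 ± 127 and 191 ± 40.0 FPKM in DC90 and 243 ± 29.1, 2022 ± 968, 3694 ± 1444, 1703 ± 1153, 308 ± 71.3 and 323 ± 81.0 FPKM in 9311 at 0, 12, 24, 72, 84 and 96 h. It was the only one of the 10 most abundant members with a mean over 200 FPKM at 0 h in both lines. LOC_Os02g08330, with a domain of unknown function (DUF2828), had a mean of 832 FPKM at 72 h and 2.57 FPKM at 0 h in DC90 and of 357 and 1.83 FPKM in 9311. An EF-hand protein, LOC_Os09g30490, was at 827, 1147 and 169 FPKM in DC90 and at 491, 570.4 and 208 FPKM in 9311 at 12, 24 and 72 h. Every library at 96 h lay below every library at 0 h, though the locus was not called against 0 h, with 2.74, 8.51 and 1.04 FPKM against 46.1, 43.7 and 13.7 FPKM in DC90 and with 2.66, 2.02 and 2.66 FPKM against 12.0, 26.0 and 11.9 FPKM in 9311. Between 84 and 96 h it fell in 9311, with a log2 fold change of −3.62 ± 0.83 (adjusted p = 0.0128 by edgeR). The remaining abundant members were loci described as RCD1 (LOC_Os03g12820, an Arabidopsis regulator of responses to oxidative stress), polyamine oxidase 2, an AAA-ATPase and GEM-like protein 5 of Arabidopsis (LOC_Os04g57550, LOC_Os07g09420 and LOC_Os12g29400) and an extracellular ribonuclease of tomato (LOC_Os08g33710), with group means of 72.9 to 702 FPKM in chilling.

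The members were chosen for a high R in chilling, so a lower R in recovery is in part set by that choice, and the values of R in recovery are a description. The median R of the members was 0.12 in each line at 96 h, against 0.09 in DC90 and 0.00 in 9311 over all loci tested. At 84 h it was 0.69 in DC90 and 1.09 in 9311, against 0.35 and 0.27 over all loci. R was at least 2 in both lines for 2 members at 96 h and for 18 at 84 h. By line, R of at least 2 at 84 h was reached by 21.4% of the members in DC90 and 26.5% in 9311, against 0.675% and 1.59% of all loci tested, and at 96 h by 3.42% and 1.71% of the members, against 0.344% and 0.401%. R was between −1 and 1 at 96 h for 83 of the 117 members in DC90, 100 in 9311 and 76 in both lines, against 20969 of the 22961 loci tested in DC90 and 21389 in 9311, so a smaller share of the members than of all loci lay within this range. The 2 members above the limit at 96 h were LOC_Os07g34570 and LOC_Os09g30340. R was −1 or less at 96 h for 13 members in DC90 and 5 in 9311. Of the 22961 loci tested, 1367 in DC90 and 818 in 9311 were this low. It was so in both lines for 3 members. The EF-hand protein LOC_Os09g30490 was at −2.80 in DC90 and −2.35 in 9311, and LOC_Os05g51130, described as an AAA-type protein of hypersensitive responses in Arabidopsis, at −1.48 and −1.01. The third, the glucosyltransferase LOC_Os04g12960, had 0.185, 0.324 and 0.348 FPKM at 96 h against 2.32, 2.12 and 1.54 FPKM at 0 h in DC90, and 0.267, 0.26 and 0.668 FPKM against 2.83, 0.832 and 1.74 FPKM in 9311. In 11 members R was at least 2 at 84 h and below 1 at 96 h in both lines. Against 0 h, a call was a log2 change of 2 or more in size with an adjusted p no higher than 0.001 in edgeR. At 84 h, 19 members in DC90 (2.51% of all loci tested, 0.314% higher and 2.2% lower) and 15 in 9311 (1.33%, 0.37% higher and 0.963% lower) were called, all of them higher, and 14 were called in both lines. The share of all loci called in both lines is not given here. At 96 h, 3 members in DC90 (1.11%, 0.0479% higher and 1.06% lower) and 1 in 9311 (0.235%, 0.0392% higher and 0.196% lower) were called. LOC_Os07g34570 was higher in both lines, P58IPK homolog B was higher in DC90, and LOC_Os01g31370, with a domain of unknown function, was lower in DC90. Since the 0 h libraries entered the rule, these calls are a description. In fits of only the groups compared there were 0 such calls at either time in either line. At 84 h the counts without replicates 1, 2 and 3 of every group were 3, 13 and 11 in DC90 and 2, 15 and 4 in 9311.

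**Figure D4:**
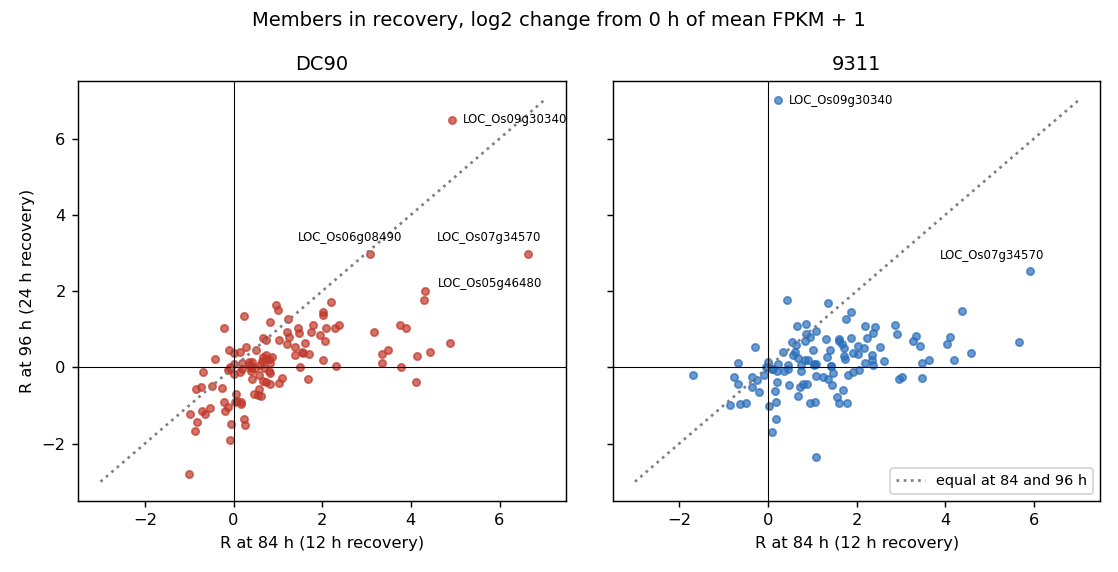
R at 96 h against R at 84 h for each of the 117 members in DC90 (left) and 9311 (right), on the scale of log2 FPKM + 1 relative to 0 h; the dotted line marks equal values. Most points lie below the line, where DC90 had a median R of 0.12 at 96 h and 0.69 at 84 h, and 9311 of 0.12 and 1.09, and loci with R above 2 at 96 h are named.

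Between 84 and 96 h, 28 members were called in DC90, 27 lower and 1 higher, and 34 in 9311, 33 lower and 1 higher, by edgeR at the limits given above for the clock list. The same test called 2.75% of all loci in DC90 (1.9% higher and 0.849% lower) and 2.93% in 9311 (1.92% higher and 1.01% lower). The median log2 fold change of the members was −0.76 in DC90 and −1.36 in 9311, against −0.03 over all loci in each line. Of 39 members that fell in a line, 21 fell in both, out of 27 in DC90 and 33 in 9311, and the 1 that rose, PRR95, was the same in both. No share of all loci called in both lines is given beside these counts. Beside those above, the members that fell in both lines included an uncharacterized locus, LOC_Os03g08580, with 2.42, 2.60 and 2.30 FPKM in DC90 at 96 h against 56.7, 54.2 and 52.8 FPKM at 84 h, and 2.87, 1.46 and 1.44 FPKM against 49.3 and 42.5 FPKM in 9311. The log2 fold changes of this locus were −4.14 ± 0.34 in DC90 (adjusted p = 1.24e-08) and −4.27 ± 0.36 in 9311 (adjusted p = 1.94e-08, both by edgeR). LOC_Os10g25060, also uncharacterized, fell with log2 fold changes of −4.42 ± 0.58 in DC90 (adjusted p = 1.53e-05) and −5.26 ± 0.62 in 9311 (adjusted p = 4.51e-06, both by edgeR). 12-oxophytodienoate reductase 1 (LOC_Os06g11290, of the family that reduces a precursor of jasmonate) fell with −3.81 in DC90 and −4.48 in 9311, and the locus described as RCD1 with −1.89 and −2.28. The count in 9311 fell to 13 without replicate 3 at 84 h and to 19 without replicate 2 at 96 h, and was 26 to 39 without any other library of the comparison. In DC90 it was 19 to 26 without any 1 library. Fits of only the groups compared called 16 members in DC90 and 12 in 9311. How many of all loci were called in these alternative fits is not given here. The leaf marker sum was 4472 to 11770 FPKM at 96 h against 672 to 3260 FPKM at 84 h in DC90 and 10790 to 24440 FPKM against 488 to 948 FPKM in 9311, and its part in these calls was not tested. Time of day also differs between 84 and 96 h, and in these calls it cannot be told apart from the length of recovery.

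Within chilling, 24 and 72 h were sampled at the same time of day. Both times entered the rule, which asked for a high R at each and so limits the change a member can show between them, and the calls and fold changes for the members are given as a description. At 72 h against 24 h, 33 members were called in DC90, 32 lower and 1 higher, and 30 in 9311, 25 lower and 5 higher, and the test called 7.83% of all loci in DC90 (2.39% higher and 5.44% lower) and 12.3% in 9311 (4.47% higher and 7.85% lower). For members lower in both lines, no share of all loci is given here. Of 39 members lower in a line, 18 were lower in both, out of 32 in DC90 and 25 in 9311. They included both heat stress factors, with log2 fold changes of −1.91 and −2.07 for C-1b and A-3 in DC90 and of −1.81 and −2.25 in 9311, and PRR1, with −1.31 in DC90 and −1.28 in 9311. PRR95 was lower with −1.40 in DC90 and −1.50 in 9311, the thiazole synthase LOC_Os07g34570 with −1.75 and −2.74, and the extracellular ribonuclease LOC_Os08g33710 with −3.08 and −2.93. The higher members were LOC_Os08g44550 in DC90 (1.68) and, in 9311, LOC_Os05g05080 (2.55), the membrane protein PM19L LOC_Os05g31670 (2.23), deoxymugineic acid synthase LOC_Os04g37490 (2.02), LOC_Os06g05470 (1.94) and LOC_Os09g19970 (1.82). None was higher in both lines. Of the gene lists, 5 of 10 clock genes were lower in each line, 2 of the DREB1 genes in DC90 and 3 in 9311, 2 of the dehydrin and LEA genes in DC90 and 1 in 9311, and 2 of the galactinol and trehalose genes in each line. A single phosphatase was lower in DC90, no NAC gene passed the test, and no gene of a list was higher. These counts of members fell to 0 in DC90 and to 1 in 9311 without replicate 1 of every group, and were 14 in DC90 and 26 in 9311 without replicate 3. The fit of only the groups compared called 0 members in 9311.

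The lines were compared at each time. The libraries at 0, 12, 24 and 72 h of both lines entered the rule, which asked for a high R in each line and so favours loci that were raised alike in both, and the calls and the counts for the members at these times are a description. At 0, 12 and 24 h no member was called between DC90 and 9311 by edgeR, where the test called 0.566%, 0.361% and 0.749% of all loci, with 0.335%, 0.148% and 0.496% higher and 0.231%, 0.213% and 0.253% lower in DC90. At an unadjusted p under 0.05 there were 7, 14 and 10 members at these times, against 1907, 2229 and 2973 of the 22961 loci tested. DESeq2 called 1, 1 and 2 members, and limma on log2(FPKM + 1) 0, 1 and 1. Of the gene lists, LEA17 (LOC_Os03g20680) and protein phosphatase 2C 8 (LOC_Os01g46760), which are not members, were higher in DC90 at 12 h, with log2 fold changes of 2.57 and 1.58. LEA17 was also higher at 72 h, with 3.96, and no clock gene passed the test between the lines at any time. At 72 h, 8 members were called, 7 lower and 1 higher in DC90, and 3.76% of all loci, of which 2.36% were higher and 1.4% lower. The median log2 fold change of DC90 against 9311 at 72 h was −0.45 over the members and −0.02 over all loci, and it was negative in 88 of 117 members.

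The members called at 72 h had the following levels, with each log2 fold change and its SE given as a description. LOC_Os07g34570, the thiazole synthase, had 686, 536 and 656 FPKM in DC90 and 203, 384 and 197 FPKM in 9311, with a log2 fold change of 1.08 ± 0.29. Glutamate dehydrogenase 2 (LOC_Os04g45970, a mitochondrial enzyme that interconverts glutamate and 2-oxoglutarate) had 127, 164 and 70.7 FPKM in DC90 and 486, 403 and 734 FPKM in 9311, with −2.40 ± 0.47. The lines do not overlap in either gene. Trehalose-phosphate phosphatase 2 (LOC_Os10g40550, which removes the phosphate of trehalose 6-phosphate) had 19.2, 39.0 and 17.3 FPKM in DC90 and 85.5, 48.1 and 57.9 FPKM in 9311, with −1.62 ± 0.38. Abscisic stress-ripening protein 2 (LOC_Os01g72900, named after a small hydrophilic tomato protein) had 44.9, 73.4 and 68.6 FPKM in DC90 and 156, 169 and 210.1 FPKM in 9311, with −1.72 ± 0.50. Its direct neighbour LOC_Os01g72910, described as abscisic stress-ripening protein 1, had 55.2, 103 and 84.7 FPKM in DC90 and 218, 270 and 270.4 FPKM in 9311 and was not called, with −1.84 ± 0.58. Protein phosphatase 2C 27 (LOC_Os02g55560) had 14.7, 15.2 and 14.8 FPKM in DC90 and 28.1, 18.7 and 34.1 FPKM in 9311, with −1.10 ± 0.29. The other 3 were loci without a described function, LOC_Os06g05470 (−1.94), LOC_Os12g02240 (−2.06) and LOC_Os05g05080 (−2.58). In LOC_Os05g05080, DC90 had 45.0, 18.2 and 11.2 FPKM and 9311 had 171, 158 and 51.4 FPKM. The lines do not overlap in any of the 8 genes, which were picked by calls on these same libraries.

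**Figure D5:**
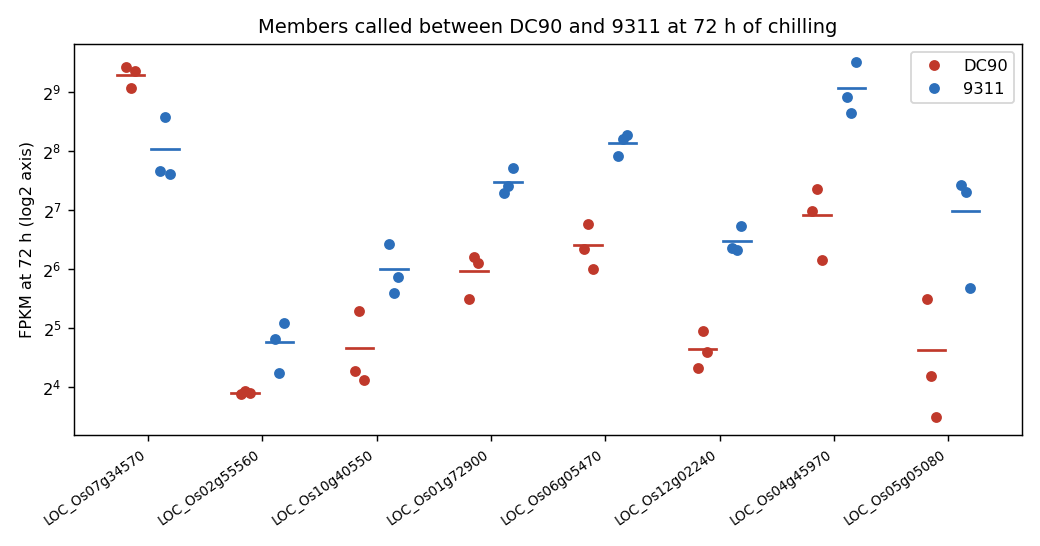
FPKM at 72 h of chilling on a log2 axis for the 8 members called between the lines, ordered by log2 fold change, with DC90 (red) left of 9311 (blue); points are libraries and bars are group means. LOC_Os07g34570 is higher in DC90 and the other 7 are lower in DC90, from a log2 fold change of −1.10 in LOC_Os02g55560 to −2.58 in LOC_Os05g05080.

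The count of 8 members at 72 h changed by more than 1.5 times with each library left out. It was 2, 4 and 1 without replicates 1, 2 and 3 of DC90 at 72 h and 1, 20 and 4 without replicates 1, 2 and 3 of 9311 at 72 h. The summed root markers were 21.8 to 37.6 FPKM in DC90 and 3.73 to 14.2 FPKM in 9311 at 72 h, and the leaf markers 1201 to 2712 FPKM in DC90 and 401 to 1976 FPKM in 9311, and their part in the difference was not tested.

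In recovery, 1 member was called between the lines at 84 h (0.671% of all loci, 0.274% higher and 0.396% lower) and 2 at 96 h (0.636%, 0.292% higher and 0.344% lower), all lower in DC90, in libraries that did not enter the rule. At 84 h it was LOC_Os01g21120, described as ERF071, an ethylene-responsive factor of hypoxia responses in Arabidopsis, with 2.22, 2.62 and 3.89 FPKM in DC90 and 8.37 and 35.3 FPKM in 9311. The log2 fold change was −2.93 ± 0.52 (adjusted p = 0.00225 by edgeR), and the 2 libraries of 9311 differ widely. The call was lost without replicate 3 (adjusted p = 1.0) and in the fit of only the groups compared (adjusted p = 0.294, both by edgeR). At 96 h, LOC_Os10g06630, described as a peptidyl-prolyl cis-trans isomerase of Catharanthus roseus, a protein folding enzyme, had 1.56, 2.69 and 1.29 FPKM in DC90 and 10.3, 18.3 and 14.5 FPKM in 9311, with −2.99 ± 0.55 (adjusted p = 0.00273 by edgeR). LOC_Os01g04280, described as SAR DEFICIENT 1, an Arabidopsis activator of salicylic acid synthesis, had 0.376, 0.887 and 1.29 FPKM in DC90 and 3.69, 2.94 and 6.31 FPKM in 9311, with −2.29 ± 0.54 (adjusted p = 0.0406 by edgeR). Both calls at 96 h were lost without replicate 1 and without replicate 3, and that of LOC_Os01g04280 also in limma and in the fit of only the groups compared. The groups do not overlap in any of these genes, which were picked by calls on these same libraries. An F test of the interaction of line and time over 84 and 96 h against 0 h called 1 member, LOC_Os01g21120 (0.148% of all loci), with the 0 h libraries that entered the rule, and the call was lost in limma, with a replicate block, in the fit of only the groups compared and without each replicate number. Over 12, 24 and 72 h against 0 h, where the values are those of the rule and a rise in both lines was asked for, it called no member (0.27% of all loci), which is a description. At an unadjusted p under 0.05 there were 20 members in chilling, against 1867 of the 22961 loci tested, while DESeq2 called 5 members and limma 1.

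Some members have values that single libraries decide. LOC_Os09g30340, described as photosystem I subunit V of barley, had 1 count in every 0 h library. It had 7053, 1 and 9123 counts at 12 h, 1, 1504 and 3997 counts at 24 h, 1, 55 and 2137 counts at 72 h, 8343, 15 and 1 counts at 84 h and 1, 22009 and 1 counts at 96 h in DC90, and 1, 1 and 39879 counts at 96 h in 9311. Its high mean at 96 h is thus 1 library in each line, and no fold change is given. LOC_Os06g08490, a RING-finger protein of the Rtf2 type, had 0.231, 5.08 and 0.0979 FPKM in DC90 and 1.25, 5.46 and 0.00286 FPKM in 9311 at 0 h and 0.233, 2.83 and 20.5 FPKM in 9311 at 96 h. LOC_Os11g03580 and LOC_Os12g03350, which share a domain (DUF309), ran in parallel, with 81.5, 64.3 and 82.7 FPKM and 90.2, 70.3 and 97.7 FPKM in DC90 at 12 h. The levels of such a pair are uncertain, as said of the DnaJ C76 pair. When the rule was applied to the lowest chilled and the highest 0 h library in place of group means, 31 of the 117 members met it.

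The remaining named members had the following recovery values. LOC_Os07g07480, with an HNH endonuclease domain, had 3.94, 2.77 and 3.93 FPKM in DC90 and 4.90, 10.6 and 6.42 FPKM in 9311 at 96 h, against 1.39, 0.752 and 0.572 FPKM in DC90 and 1.46, 0.596 and 2.32 FPKM in 9311 at 0 h. Every 96 h library of a line was above every 0 h library of that line. LOC_Os01g50100, described as an ABC transporter of Arabidopsis, averaged 119 ± 38.5 FPKM in DC90 and 163 ± 37.7 FPKM in 9311 at 24 h, and 0.565 ± 0.394 and 0.413 ± 0.0229 FPKM at 96 h. LOC_Os03g19070, with a Pfam domain named after a cotton fibre protein, fell between 84 and 96 h in 9311, with a log2 fold change of −2.85 ± 0.57 (adjusted p = 0.0036 by edgeR), to 0.925, 0.504 and 0.423 FPKM against 2.56 and 8.10 FPKM. Here too the 2 libraries at 84 h differ widely. LOC_Os08g45230, described as the clathrin interactor EPSIN 3 of Arabidopsis, was under 0.1 FPKM in every library at 84 and 96 h. The UDP-glycosyltransferase LOC_Os04g12690 had 0 counts in 10 of the 11 libraries at 84 and 96 h and 10 counts in the other, so no fold change is given.

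Members that lay side by side were few. The abscisic stress-ripening genes LOC_Os01g72900 and LOC_Os01g72910, and LOC_Os04g52740 and LOC_Os04g52750, were direct neighbours, and LOC_Os05g05060 and LOC_Os05g05080, and LOC_Os05g51130 and LOC_Os05g51150, had 1 locus between them. Fewer loci met rules for a rise limited to one end of chilling. These rules also set an upper limit on R at the other times, which the rule of the members lacks, so the counts are not on like terms. Among all loci, 3 had R of at least 2 at 12 h and under 1 at 24 and 72 h in both lines, and 24 had R under 1 at 12 and 24 h and at least 2 at 72 h. The median R of these 24 late loci was 0.46 in DC90 and 0.21 in 9311 at 96 h and 0.99 in each line at 84 h.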

How the data were processed

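RNA-Seq values of 35 libraries were used as deposited, with the counts and FPKM that the authors made for 57778 loci, of which 1816 were added by them to the annotation. The paper's methods name Hisat2 and Release 7 of the rice annotation, while the submitters' processing notes name Bowtie 0.12.2 and mm8. The counter is not given in the sources used here. No column was left out and no 2 libraries were identical. Members were found from mean FPKM with a pseudocount of 1.

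Counts were tested in edgeR 4.0.16 (R 4.3.3), with TMM, all 12 groups in 1 quasi-likelihood fit, and Benjamini-Hochberg adjustment over 22961 loci. Adjusted p-values in the text come from this test. The SE of a log2 fold change was worked back from the test, as its size divided by the square root of the F statistic. Alternatives used DESeq2 1.42.0, limma 3.58.1 on log2(FPKM + 1), other filters, normalization and thresholds, a replicate block and left-out libraries. Replicate numbers met the pairing check only between the lines at 12 h. Scripts were tested on simulated counts. Tables were handled with pandas 2.3.3 and numpy 2.4.6 in Python 3.11.15, and figures drawn with matplotlib 3.10.9.

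Named members are the 10 with the largest smallest R, the 10 most abundant, those in the gene lists, called between lines, described as transcription factors, nearest the limit, with the 5 highest and 5 lowest R at 96 h, and with the 5 largest rises and falls after 84 h. Others named were chosen after their values were seen. The members and lists were chosen with earlier results of these data known. No sequence was used here.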

Additional observations from a re-analysis of the deposited data

Results flagged for a closer look

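LOC_Os01g21120, described as ERF071, differed between the lines in its change over 84 and 96 h against 0 h in an F test of the interaction of line and time (adjusted p = 0.0363 by edgeR). Its mean R was −0.74 in DC90 and 2.37 in 9311 at 84 h and −0.52 in DC90 and 0.07 in 9311 at 96 h. The 9311 value at 84 h comes from 2 libraries at 8.37 and 35.3 FPKM. The call was lost in limma, with a replicate block, in the fit of only the groups compared, at the stricter thresholds and without each replicate number, where each gave 0 members, and the 0 h libraries in the test had entered the rule.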

How the results depend on the processing

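The rule gave 117 loci, and 274 with a pseudocount of 0.1, 619 with a limit of 1 and 31 with the lowest chilled against the highest 0 h library, but 150 from CPM, 105 of them shared. Leaving out libraries gave 101 to 129.

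Counts of called members moved as follows. The share of all loci called under each alternative, left-out libraries included, is not given here or above. DESeq2 gave 28 (9311) at 84 h against 0 h, 18 (DC90) and 4 (9311) at 96 h against 0 h, 1, 1, 2, 19 and 6 between the lines at 0, 12, 24, 72 and 84 h, and 5 and 8 for the interaction in chilling and recovery. Limma gave 1 (DC90) at 96 h against 0 h, 1, 1, 17 and 1 between the lines at 12, 24, 72 and 96 h, and 1 and 0 for the interactions. No filter gave 5 (DC90) at 96 h against 0 h. Fits of only the groups compared gave 16 (DC90) and 12 (9311) at 96 h against 84 h, 0 for 84 and 96 h against 0 h in both lines and for 72 h against 24 h in 9311, 1, 0 and 1 between the lines at 72, 84 and 96 h, and 0 for the recovery interaction. The other pair of thresholds gave 12 (DC90) and 10 (9311) at 96 h against 84 h, 38 (DC90) and 49 (9311) at 84 h and 25 (DC90) and 7 (9311) at 96 h against 0 h, 1 (DC90) and 2 (9311) at 72 h against 24 h, and 0 between the lines at 72, 84 and 96 h and for the recovery interaction. DESeq2 size factors moved no count by more than 1.5 times.

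Leaving out libraries gave 10 to 26 (DC90) and 8 to 39 (9311) at 96 h against 84 h, 3 to 13 (DC90) and 2 to 15 (9311) at 84 h and 0 to 1 (DC90) and 0 to 1 (9311) at 96 h against 0 h, 0 to 28 (DC90) and 1 to 28 (9311) at 72 h against 24 h, 0 to 24, 0 to 1 and 1 to 2 between the lines at 72, 84 and 96 h, and 0 for the recovery interaction. Where 9311 at 84 h then had 1 library, it was assumed to vary like the other groups. Single libraries left out were chosen after the data had been seen, as were the strict rule and the member counts without 1 library.

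Of 14 pairs of groups, DC90 and 9311 at 12 h alone had every same-number correlation of deviations above 0.1 (0.261, 0.519 and 0.281), and a replicate block there gave 0 members, as without it. Over all pairs the 39 correlations ran from −0.444 to 0.519 (median 0.058), and in the other pairs the numbers were taken as shared labels. With a replicate block the recovery interaction gave 0 members, and no other count moved by more than 1.5 times. For the named genes, 340 of 480 alternative values kept their call, 140 lost it and none changed sign. The losses were uneven over the settings. Of 48 calls, 34 were lost without replicate 3, 30 without replicate 1 and 9 without replicate 2. The other thresholds lost 32, and fits of only the groups compared 28. No filter lost 3, limma and the replicate block 2 each, and DESeq2 and its size factors 0. The cause of these shifts was not tested. Depth was at least 28004101 counts in each library, and the number of libraries limits the precision.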
